A study of Mus musculus with 14 samples.

Results

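Mitochondrial ribosomal proteins are the protein parts of the ribosome inside mitochondria. Their genes were taken by symbol (Mrps or Mrpl followed by a number) from the probe sets that name a single gene, and each gene was represented by the probe set with the highest mean signal over all arrays. This gave 76 genes on 156 probe sets, out of 18193 genes on 34945 probe sets. Of the 76 genes, 29 have small subunit symbols (Mrps) and 47 have large subunit symbols (Mrpl). Mrpl30 and Mrpl53 were listed only on probe sets shared with a second gene and are not members. The samples were livers of 14 male CBA/J mice, an inbred strain, 1 mouse per array. All mice were housed singly on 84 kcal per week of food of the AIN93M type, a purified diet for adult rodents. From 2 months of age 7 of them ate the control diet and 7 ate a diet with krill powder extract, made from a small marine crustacean, and tissue was taken at 5 months of age after 3 months on the diets. Total protein and total lipid were matched between the diets, while their amino acids and fatty acids differed.

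Mitochondria keep a small genome of their own that encodes a handful of respiratory chain subunits, and the mitochondrial ribosome exists to translate those messages. Its RNA comes from mitochondrial DNA, but every one of its proteins is encoded in the nucleus, made in the cytosol and imported. The small subunit reads the messenger RNA and the large subunit forms the peptide bonds and feeds the new chain towards the inner membrane. Hepatocytes are rich in mitochondria, and the demand for this machinery is tied to respiratory capacity.

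The deposited values were linear signals in arbitrary units, scaled so that all arrays share a trimmed mean. The hepatocyte marker Alb, the serum albumin gene, had a signal of 45619 to 82071 in control and 60906 to 129330 in krill livers. The summed signal of 4 Kupffer cell markers was 4646 to 6570 in control and 6538 to 13104 in krill livers. That of 4 cholangiocyte markers was 253 to 395 and 207 to 677, and of these only Epcam passed the filter on low signal. The endothelial markers were split: Stab2 was 1437 to 2658 in control and 930 to 1293 in krill livers, and Lyve1 was 185 to 452 and 333 to 1439. Clec4g and Pecam1 overlapped between the diets. The Kupffer cell markers did not move together: Cd5l (1616 to 2544 in control and 3327 to 8017 in krill livers) and Adgre1 were called higher, Vsig4 was called lower (1020 to 1694 and 474 to 1865), and Clec4f did not pass the threshold. In bulk tissue fewer cells of a type and less RNA per cell cannot be told apart, and the part of Kupffer or endothelial cells in the results was not tested. Array quality differed between the diets. The 3'/5' index, a mean log2 ratio of control probe sets at the ends of transcripts that is higher for shortened RNA, was 1.56 to 2.28 on control and 2.44 to 3.12 on krill arrays, without overlap. Diet and this index therefore cannot be told apart, and with the index as a covariate limma called none of the 11308 genes tested (1872 had an unadjusted p under 0.05). The hybridisation spike-ins, added in equal amounts and so a gauge of how dim a sample was before scaling, had a mean log2 signal of 12.59 to 13.22 on control arrays and 12.92 to 14.34 on krill arrays. Krill replicates 2, 4, 5 and 7 lay at 14.12 or above, and the main counts are also given without them.

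Transcripts of mitochondrial ribosomal proteins were more often higher than lower in krill liver. With limma on log2(signal + 16) over all genes and Benjamini-Hochberg adjustment at 0.05, 39 of the 76 members (51.3%) were higher in krill liver, against 22.9% of all genes tested. Another 15 members (19.7%) were lower, against 24.8% of all genes, and 22 did not pass the threshold. The median log2 change, krill minus control, was 0.53 over the members and 0.04 over all genes tested. All 76 members passed the filter on low signal. In 24 members every krill array lay above every control array (6.52% of all genes tested do so), in 4 members every krill array lay below (7.61% of all genes), and in 48 the groups overlapped. A change of at least 2-fold in either direction was called for 28 of the 76 members, against 22.9% of all genes tested.

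The direction of the group as a whole depended on how the arrays were put on one scale. Scaled on the spike-ins the median change of the members was -0.25 and that of all genes -0.71, and the calls turned to 8 higher (10.5%, against 2.95% of all genes) and 23 lower (30.3%, against 48.2%). Centred on the array medians, the members had a median of 0.13 with all genes at -0.36, and 22 members were higher (28.9%, against 8.85% of all genes) and 17 lower (22.4%, against 33%). These scalings shift all genes of an array by about the same amount, so they hardly touch the members' median relative to all genes, which was 0.49 as deposited.

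With the genes tested cut into 3 equal bands by mean signal, which reflects the probes as well as the transcript, 72 of the 76 lie in the top band and 4 in the middle one. Of the 72, 39 were higher and 13 lower (54.2% and 18.1%), while of all genes in the top band 29.8% were higher and 28.2% lower.

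**Figure D1:**
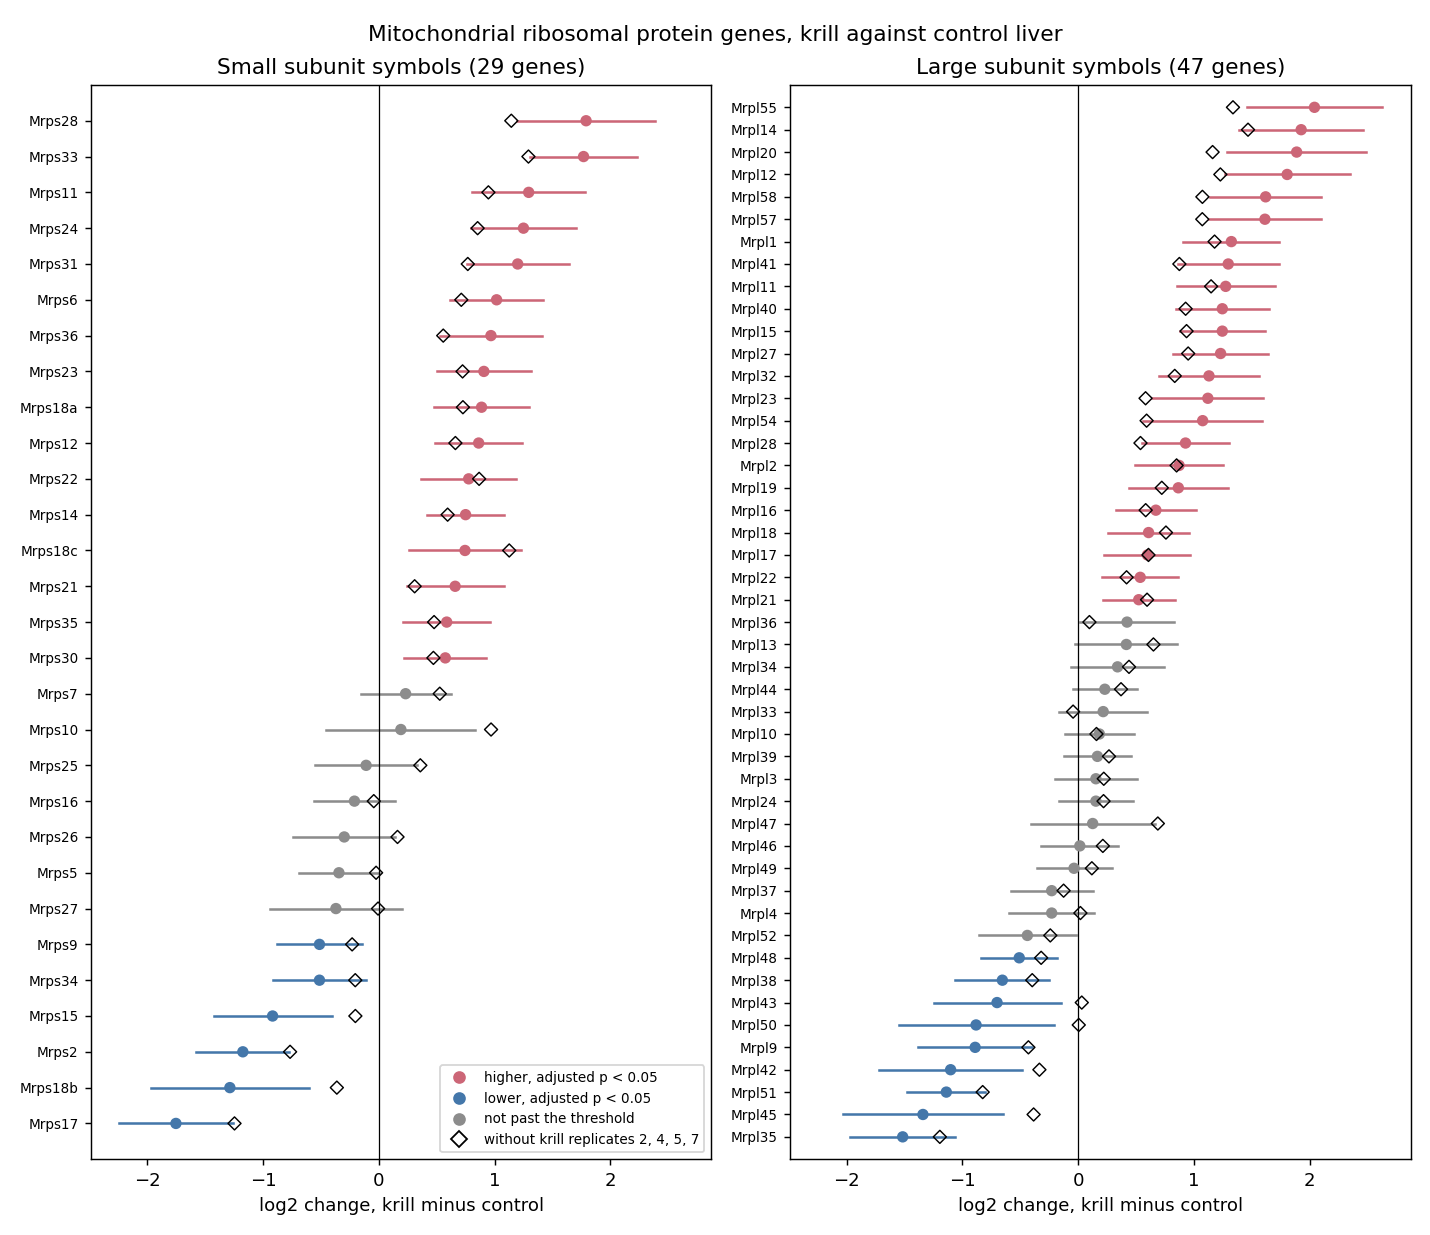
Log2 change in signal, krill minus control, for the 29 small subunit symbols (left) and the 47 large subunit symbols (right), with points and bars for the limma estimate and its 95% confidence interval (n = 7 per diet, signal as deposited) and open diamonds for the estimate without krill replicates 2, 4, 5 and 7. Red marks the 39 genes called higher, blue the 15 called lower and grey the 22 not past the threshold, and most blue points move towards 0 without the 4 arrays. With spike-in scaling 8 genes are higher and 23 lower.

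The rises reached about 4-fold and were led by large subunit genes. Mrpl55, which encodes a large subunit protein, had a signal of 693 at the lowest, 976 at the median and 1300 at the highest on control arrays, and of 1676, 4360 and 9435 on krill arrays. Every krill array lay above every control array. The log2 change was 2.04 (SE 0.28, 4.12-fold, limma adjusted p = 4.05e-05), and 1.34 without the 4 krill arrays.

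Mrpl14, counterpart of bacterial L14 at the face where the subunits meet, had control signals of 2195, 2784 and 3387 (lowest, median, highest) and krill signals of 5089, 9931 and 25599. Its groups did not overlap, and the log2 change was 1.93 (SE 0.26, limma adjusted p = 3.4e-05). Mrpl12 encodes the stalk protein that recruits translation factors, and the human protein has also been found bound to the mitochondrial RNA polymerase. Its control signals were 4045, 5600 and 8756 and its krill signals 9995, 23722 and 42814, again without overlap, and it rose by 1.81 (SE 0.26, limma adjusted p = 4.91e-05). Mrpl20, counterpart of a protein that binds early in bacterial large subunit assembly, had control signals of 1862, 2083 and 3914 and krill signals of 4398, 10083 and 21179 and a log2 change of 1.89 (SE 0.29), or 1.16 without the 4 krill arrays.

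The other leading large subunit rises were smaller, and in each of them the groups did not overlap. Mrpl58, a peptidyl-tRNA hydrolase that frees stalled ribosomes and is also built into the subunit, changed by 1.62 (SE 0.23), from a median signal of 2257 to 7505. Mrpl57, a protein found in mitochondrial ribosomes and not in bacterial ones, changed by 1.61 (SE 0.23), from 3577 to 11706. Mrpl1, counterpart of the bacterial protein of the stalk where spent tRNA leaves, changed by 1.32 (SE 0.20), from 1082 to 2486. Mrpl41 changed by 1.30 (SE 0.21), from 4466 to 11172. Without the 4 krill arrays Mrpl58 and Mrpl57 each changed by 1.07 and Mrpl1 by 1.18. With all arrays the mean over the probe sets of Mrpl1 changed by 0.81. After spike-in scaling Mrpl1 and Mrpl41 were no longer past the threshold, with adjusted p of 0.137 and 0.0959, while the other 6 large subunit genes named so far remained past it.

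Among small subunit genes Mrps28 and Mrps33 rose most. Mrps28, counterpart of bacterial S1, had control signals of 1711, 3144 and 4110 and krill signals of 4225, 10696 and 23135, which do not overlap, and its log2 change was 1.79 (SE 0.29, limma adjusted p = 0.00011), or 1.15 without the 4 krill arrays. Mrps33, which has no bacterial counterpart, had control signals of 2052, 2876 and 4077 and krill signals of 4915, 10015 and 14744 and rose by 1.77 (SE 0.22, limma adjusted p = 2.63e-05). Here too the lowest krill array was above the highest control array. Mrps12, counterpart of the bacterial protein that guards decoding accuracy, rose by 0.86 (SE 0.18, limma adjusted p = 0.000892), with control signals of 2285, 2444 and 2908 and krill signals of 3223, 4910 and 8107. Its groups did not overlap, but spike-in scaling left 0.08 (adjusted p = 0.834) and centring on array medians 0.46 (adjusted p = 0.121).

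A member can carry a small subunit symbol without sitting in the small subunit. Mrps30 was placed in the large subunit when the structure was solved. It rose by 0.58 (SE 0.17, limma adjusted p = 0.00987), with control signals of 1106, 1177 and 1448 and krill signals of 1321, 1862 and 2571, and its change was -0.21 after spike-in scaling and 0.17 after centring (adjusted p = 0.582). Mrps36 was later assigned to the 2-oxoglutarate dehydrogenase complex of the citric acid cycle and is not a ribosomal protein by structure. It rose by 0.97 (SE 0.21, limma adjusted p = 0.00122), with control signals of 1022, 1344 and 1662 and krill signals of 1541, 2761 and 4341, which overlap. Its change was 0.56 without the 4 krill arrays and 0.19 after spike-in scaling (adjusted p = 0.569), and centring left it just short of the threshold (0.57, adjusted p = 0.0594).

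The falls were fewer and are described in 2 groups, by whether the call held without krill replicates 2, 4, 5 and 7. This is a cut by threshold, since the falls of both groups were smaller without those arrays. Mrps17, Mrpl35, Mrpl51 and Mrps2 lay lower on every krill array than on any control array and were also called without krill replicates 2, 4, 5 and 7. The other 11 members called lower overlapped between the diets and lost the call without those arrays.

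Mrps17, counterpart of the bacterial small subunit protein S17, had control signals of 2243, 3228 and 3901 and krill signals of 506, 1002 and 1674. Its log2 change was -1.75 (SE 0.23, 3.37-fold, limma adjusted p = 3.56e-05), and -1.25 without the 4 arrays. Mrpl35, counterpart of bacterial L35, had control signals of 1389, 1743 and 2350 and krill signals of 346, 570 and 1187 and changed by -1.51 (SE 0.22). Mrps2, counterpart of bacterial S2, had control signals of 1290, 1690 and 1832 and krill signals of 477, 723 and 1127 and changed by -1.17 (SE 0.19), or -0.77 without the 4 arrays. These 3 kept a negative change under every alternative run.

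Mrpl51, a large subunit protein specific to mitochondria, had control signals of 5204, 6282 and 6473 and krill signals of 2119, 2695 and 4281 on its representative probe set and changed there by -1.14 (SE 0.16, limma adjusted p = 4.62e-05). Its other probe sets do not follow. One with a control mean of 120, was called higher with a change of 1.03, another changed by 0.48 without passing the threshold, and the mean over its probe sets changed by 0.13.

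Mrpl45 and Mrps18b belong to the group that lost the call without krill replicates 2, 4, 5 and 7. Mrpl45, which lies at the exit of the peptide tunnel and holds the ribosome to the inner membrane, had control signals of 905, 1046 and 1255 and krill signals of 166, 470 and 909. Krill replicate 1 reached the lowest control value, replicates 3 and 6 lay somewhat below it, and replicates 2, 4, 5 and 7 at 470 or less. The log2 change was -1.34 (SE 0.33, limma adjusted p = 0.00312), and without those 4 arrays -0.38 (adjusted p = 0.0582).

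Mrpl42, Mrpl9, Mrps15 and Mrpl50 also lost the call without those arrays. Their log2 changes were -1.10, -0.89, -0.92 and -0.88. On the 10 arrays left after dropping krill replicates 2, 4, 5 and 7 they were -0.33, -0.43, -0.20 and 0.006. Mrpl9 and Mrps15 are counterparts of bacterial proteins, while Mrpl42 and Mrpl50 are found in mitochondria only. The call of Mrpl50 (limma adjusted p = 0.0304) was the least secure of those named: it was lost when any 1 of control replicates 2, 5 or 6 or krill replicates 2, 4, 5 or 7 was left out, with adjusted p of 0.0515 to 0.0668, and as the mean of its probe sets (-0.65, adjusted p = 0.058).

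**Figure D2:**
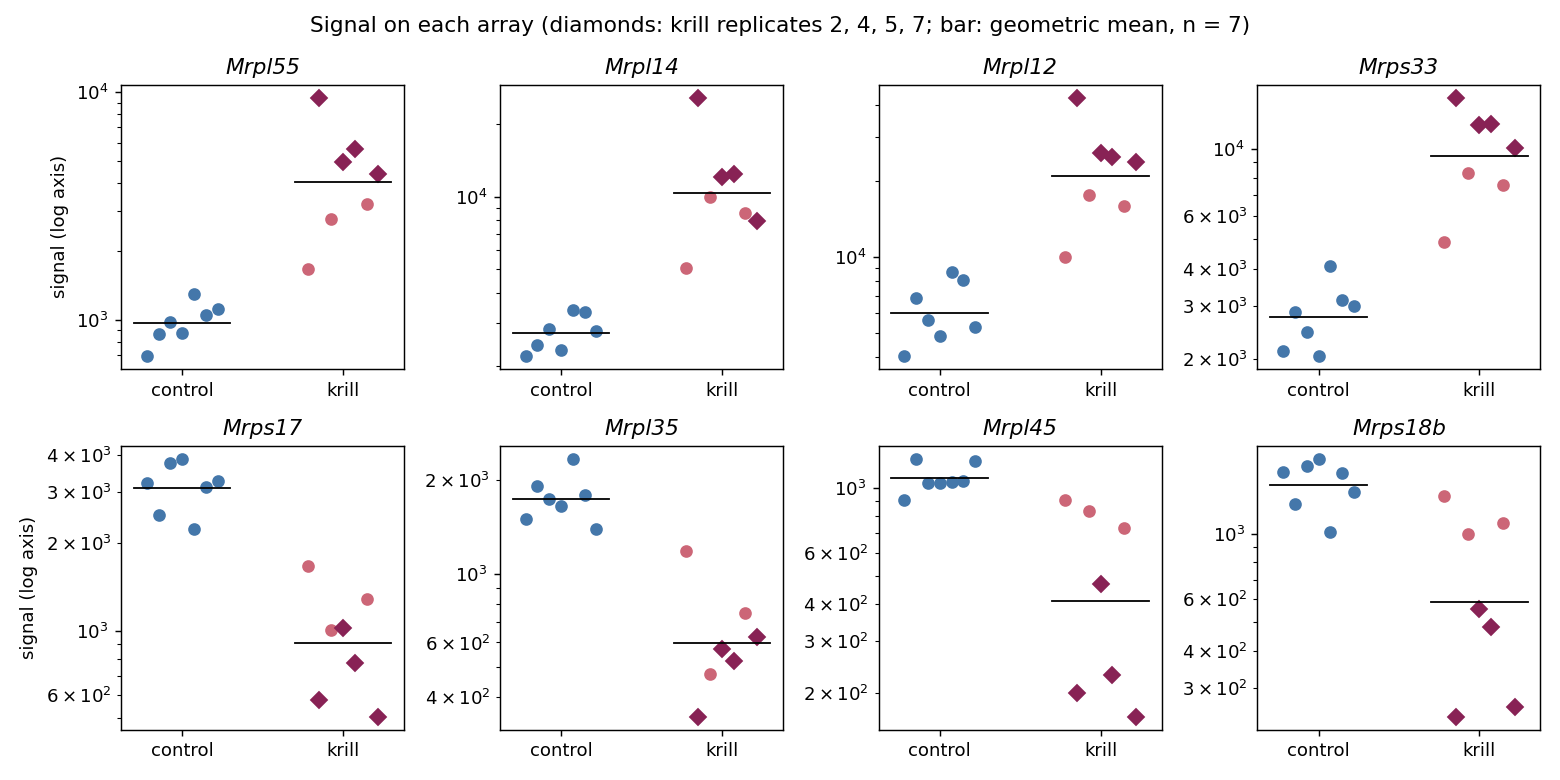
Signal of 8 members on each array, on log axes, for control (blue, n = 7) and krill (n = 7) livers, with bars at the geometric mean and diamonds for krill replicates 2, 4, 5 and 7. Mrpl55, Mrpl14, Mrpl12 and Mrps33 are above all control arrays on every krill array and Mrps17 and Mrpl35 below all of them, while Mrpl45 and Mrps18b overlap and are lowest on the diamonds. The signals are as deposited, and with spike-in scaling the 4 higher genes stay higher and the 4 lower genes stay lower.

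The remaining 22 members did not pass the threshold on their representative probe sets. They include 7 small subunit genes (Mrps5, Mrps7, Mrps10, Mrps16, Mrps25, Mrps26 and Mrps27) and 15 large subunit genes (Mrpl3, Mrpl4, Mrpl10, Mrpl13, Mrpl24, Mrpl33, Mrpl34, Mrpl36, Mrpl37, Mrpl39, Mrpl44, Mrpl46, Mrpl47, Mrpl49 and Mrpl52). Their log2 changes ran from -0.44 for Mrpl52 to 0.42 for Mrpl36. Other probe sets of Mrpl13 (0.753 and 0.675), Mrpl3 (0.765) and Mrps5 (0.769) were called higher, and others of Mrpl49 (-0.638) and Mrpl52 (-0.516) lower. As the mean of its probe sets Mrpl13 changed by 0.615 (limma adjusted p = 0.00363) and Mrpl3 by 0.459 (limma adjusted p = 0.0166). Without krill replicates 2, 4, 5 and 7, 6 of the 22 members were called higher, namely Mrpl13, Mrpl34, Mrpl44, Mrpl47, Mrps7 and Mrps10. Mrps10, for instance, changed by 0.19 with all arrays, with krill signals from 804 to 4092, and by 0.97 without the 4.

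Leaving out those 4 arrays therefore raised the balance towards higher calls. On the 3 remaining krill arrays and the 7 control arrays 43 members were higher, against 12.7% of all genes, and 4 were lower, against 19.6% of all genes. Of the 39 members higher with all arrays, 37 were also higher here, and Mrpl22 and Mrps21 were not. The median change was 0.53, with that of all genes at -0.04.

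The krill arrays differed among themselves. Relative to each gene's control mean, the median log2 signal of the 76 members was -0.19 to 0.13 on control arrays (mean 0.01, SD 0.12) and 0.13 to 0.86 on krill arrays (mean 0.52, SD 0.26). Krill replicate 2 had the highest median, 0.86, and krill replicate 7 the lowest, 0.13, at the level of control replicate 6. Among the 39 members called higher, the highest krill signal was on replicate 2 for 32 and the lowest was on replicate 1 for 27. Among the 15 called lower, replicate 1 had the highest krill signal for 11, and replicates 7 and 2 the lowest for 9 and 5. Replicate 1 was thus the krill array nearest to the controls in both directions.

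Spread was wider in krill livers. The SD of log2 signal had a median over the members of 0.20 in control and 0.47 in krill livers, against 0.29 and 0.55 over all genes tested. On the representative probe sets Mrpl44 was the steadiest member in both diets, with 0.06 and 0.19, and Mrpl45 the most variable in krill livers, with an SD of 1.0. The other probe sets of Mrpl44 were less steady. They changed by 0.06, -0.61 and -1.07 (SE 0.13, 0.34 and 0.45), none past the threshold. The mean over all its probe sets changed by -0.35, against 0.23 on the representative one.

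**Figure D3:**
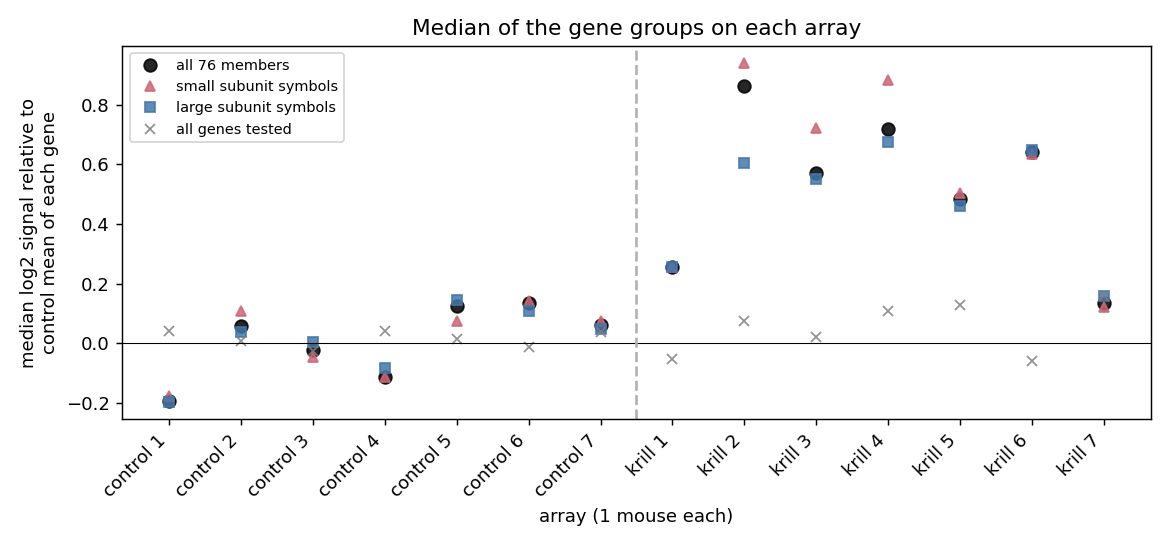
Median log2 signal relative to each gene's control mean, on each of the 14 arrays, for all 76 members (black), small subunit symbols (red), large subunit symbols (blue) and all genes tested (crosses), with signal as deposited. The members lie between -0.19 and 0.13 on control arrays and between 0.13 and 0.86 on krill arrays, and with spike-in scaling their median change turns to -0.25.

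With signal as deposited both subunits had more genes higher than lower, and with spike-in scaling fewer. By symbol, 16 of 29 small subunit genes were higher and 6 lower (55.2% and 20.7%), with a median change of 0.59. Of 47 large subunit genes 23 were higher and 9 lower (48.9% and 19.1%), with a median of 0.42. Over all genes tested the shares were 22.9% and 24.8%. With spike-in scaling 2 small subunit genes were higher and 10 lower (6.9% and 34.5%, median -0.20). Of the large subunit genes 6 were higher and 13 lower (12.8% and 27.7%, median -0.36). With this scaling 2.95% of all genes were higher and 48.2% lower (median -0.71), so both subunits fell less often than all genes. Centred on array medians the counts were 6 and 7 for the small and 16 and 10 for the large subunit. Those are 20.7% and 24.1%, and 34% and 21.3%, against 8.85% and 33% of all genes. The difference of the medians, small minus large, was 0.16. Its sign rested on where a few genes were placed and on a few arrays. With Mrps18a and Mrps30 in the large subunit and Mrps36 in neither, the medians were 0.41 over 26 small subunit genes and 0.52 over 49 large subunit genes, a difference of -0.11, and without krill replicates 2, 4, 5 and 7 the difference by symbol was -0.012. On single arrays the difference by symbol ran from -0.07 to 0.07 in control and from -0.04 to 0.34 in krill livers. Members are not replicates, so no test was made.

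A split by ancestry was wider than the one by subunit. In the uniform naming of ribosomal proteins, 44 members carry names shared with bacterial ribosomes, and of these 25 were higher and 6 lower, with a median change of 0.60. The 30 members placed as mitochondria-only had 12 higher and 9 lower and a median of -0.01. Mrpl55, the largest rise of all members (2.04), was not assigned to either group, and Mrps36 (0.97) was in neither. Both were called higher, so the counts of this split leave out the leading rise, also within the large subunit. The shares were 56.8% and 13.6% of the first group and 40% and 30% of the second, against 22.9% and 24.8% of all genes. Within the large subunit the counts were 17 higher and 2 lower of 28 shared proteins and 7 higher and 7 lower of 20 mitochondria-only ones. In the small subunit 8 of 16 shared proteins were higher and 4 lower, and 5 of 10 mitochondria-only ones were higher and 2 lower. With spike-in scaling 4 of the 44 shared proteins were higher and 9 lower (median -0.18), and 3 of the 30 mitochondria-only ones were higher and 14 lower (median -0.79). Over all genes 2.95% were then higher and 48.2% lower (median -0.71), so the lower calls of the mitochondria-only group are near the share of all genes. Without krill replicates 2, 4, 5 and 7 the medians were 0.60 and 0.24, with 28 higher and 3 lower against 13 higher and 1 lower. Of all genes 12.7% were higher and 19.6% lower without those arrays. This split was made with the results known and the difference was not tested.

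The Mrps18 genes are 3 mammalian relatives of the bacterial small subunit protein S18. Mrps18c occupies the place of S18 in the small subunit, Mrps18b sits elsewhere in the small subunit, and Mrps18a belongs to the large subunit. Mrps18a rose by 0.89 (SE 0.20, limma adjusted p = 0.00152), with control signals of 1651, 2048 and 2161 and krill signals of 2296, 3992 and 6254. Mrps18c rose by 0.75 (SE 0.23, limma adjusted p = 0.0143), with control signals of 2041, 2772 and 4864 and krill signals of 2628, 5425 and 6752. Mrps18b fell by 1.29 on the log2 scale (SE 0.33, limma adjusted p = 0.00397), with control signals of 1016, 1611 and 1805 and krill signals of 239, 554 and 1348. The first gene did not overlap between the diets and the other 2 did. Without the 4 krill arrays Mrps18c changed by 1.13.

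A ratio of genes within an array hardly depends on how arrays are scaled. The log2 ratio of Mrps18a to Mrps18b shifted by 2.17 from control (SD 0.37, n = 7) to krill livers (SD 1.23, n = 7), and that of Mrps18c to Mrps18b by 2.03 (SD 0.69 and 0.76). Without krill replicates 2, 4, 5 and 7 the shifts were 1.09 and 1.49, and the fall of Mrps18b itself was no longer called (-0.36, adjusted p = 0.145). After spike-in scaling the change of Mrps18a was 0.10 (adjusted p = 0.79) and that of Mrps18c -0.04, and after centring neither was past the threshold (adjusted p = 0.138 and 0.455). The ratios show that the signals of these probe sets changed unequally, not which of them moved. They do not remove the difference in the 3'/5' index between the diets, whose part in the shifts was not tested. With that index as a covariate limma called none of the 3 genes. The changes were then 0.89 for Mrps18a, 1.26 for Mrps18c and 0.035 for Mrps18b.

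The promoters of these genes are shown because the relatives moved apart. Those of Mrps11 and Mrps12 are shown because each starts at most 500 bases from a neighbour on the opposite strand. Each of those neighbours is a gene of mitochondrial translation and did not move with the member. The sequences are the 250 bases before and the 50 bases after each RefSeq transcript start in GRCm38.p6, on the gene's own strand, 5' to 3'. Mrps18a is at chr17:46110754-46111053 (plus strand), Mrps18c at chr5:100798509-100798808 (plus), Mrps18b at chr17:35916391-35916690 (minus), Mrps11 at chr7:78782881-78783180 (plus) and Mrps12 at chr7:28741772-28742071 (minus). Capitals mark matches on either strand to the core motifs of factors known to act on nuclear genes for mitochondrial proteins: the ETS core CCGGAAG (bound by NRF-2, also called GABP), the NRF-1 core CGCNTGCGC and the YY1 core AAGATGG.
Mrps18a: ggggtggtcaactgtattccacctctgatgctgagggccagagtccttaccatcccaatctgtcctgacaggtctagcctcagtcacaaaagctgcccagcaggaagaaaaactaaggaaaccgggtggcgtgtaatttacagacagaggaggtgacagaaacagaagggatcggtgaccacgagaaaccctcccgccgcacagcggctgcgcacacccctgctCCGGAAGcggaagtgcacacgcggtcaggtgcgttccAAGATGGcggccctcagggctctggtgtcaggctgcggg
Mrps18c: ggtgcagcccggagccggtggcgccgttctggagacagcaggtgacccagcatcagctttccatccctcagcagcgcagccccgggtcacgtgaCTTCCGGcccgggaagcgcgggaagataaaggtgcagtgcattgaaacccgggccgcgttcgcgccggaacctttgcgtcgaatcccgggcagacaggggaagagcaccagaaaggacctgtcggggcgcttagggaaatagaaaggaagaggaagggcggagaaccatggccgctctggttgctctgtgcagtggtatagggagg
Mrps18b: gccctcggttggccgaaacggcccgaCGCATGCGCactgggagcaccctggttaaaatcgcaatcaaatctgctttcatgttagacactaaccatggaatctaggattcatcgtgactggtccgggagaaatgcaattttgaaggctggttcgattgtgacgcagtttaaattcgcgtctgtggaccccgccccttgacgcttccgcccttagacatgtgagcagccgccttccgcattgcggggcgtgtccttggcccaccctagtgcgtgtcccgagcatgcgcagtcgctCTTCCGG
Mrps11: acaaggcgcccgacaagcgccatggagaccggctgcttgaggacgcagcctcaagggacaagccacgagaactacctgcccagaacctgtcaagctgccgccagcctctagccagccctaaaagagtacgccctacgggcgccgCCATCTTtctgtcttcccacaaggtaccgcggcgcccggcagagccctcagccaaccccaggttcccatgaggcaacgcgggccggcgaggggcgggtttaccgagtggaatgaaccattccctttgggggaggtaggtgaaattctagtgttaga
Mrps12: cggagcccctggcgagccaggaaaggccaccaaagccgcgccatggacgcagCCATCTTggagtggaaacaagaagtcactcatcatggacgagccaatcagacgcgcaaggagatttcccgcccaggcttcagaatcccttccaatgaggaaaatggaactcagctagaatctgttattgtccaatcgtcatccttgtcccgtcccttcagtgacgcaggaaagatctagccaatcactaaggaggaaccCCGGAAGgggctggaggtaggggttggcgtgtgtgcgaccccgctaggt

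RefSeq promoters were matched for 67 of the 76 members. The ETS core was found in 25 of the 67 (37.3%), against 19.3% of the genes tested and 9.93% of all genes with a promoter in the table. The NRF-1 core was in 15 (22.4%, against 15% and 7.03%), the YY1 core in 13 (19.4%, against 8.39% and 7.28%), and the TATA box letters TATAAA in 5 (7.46%, against 9.71% and 15.7%). At least 1 of the first 3 cores was in 42 of 67 members (62.7%), against 36.3% of the genes tested. The median GC content of the windows was 58.7% for members and 60.3% for genes tested. Members of either direction held the cores. The ETS core was in 14 of 34 members called higher, 4 of 13 called lower and 7 of 20 not past the threshold, and Mrps18a, Mrps18b and Mrps18c each hold 1 copy. A match describes these letters only and shows no binding.

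Many of these genes stand head to head with a neighbour. A start on the opposite strand at most 500 bases away was found for 22 of 67 members (32.8%), against 17.5% of the genes tested. Of the 22 neighbours 19 were tested: 4 were higher, 6 lower and 9 not past the threshold. Over all genes tested 22.9% were higher and 24.8% lower, so these counts show no trait of the neighbours. Mrps11 and Mrpl46 are each the neighbour of the other, and their pair is counted from both sides. In 3 pairs both genes were called in the same direction and in 4 pairs in opposite directions. Whether neighbours move together was not tested.

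Mrps11, counterpart of bacterial S11, and Mrpl46, a large subunit protein, start 42 bases apart on opposite strands. The pair was singled out after its values were seen. Mrps11 had control signals of 581, 841 and 1060 and krill signals of 1164, 2072 and 4567 and rose by 1.30 (SE 0.23, limma adjusted p = 0.000296), which was 0.52 after spike-in scaling (adjusted p = 0.139). Mrpl46 had control signals of 1314, 1636 and 1808 and krill signals of 1054, 1624 and 2184, which overlap throughout, and its change was 0.02 (SE 0.16, 95% interval -0.32 to 0.35). Their log2 ratio shifted by 1.28 with all arrays and by 0.73 without krill replicates 2, 4, 5 and 7.

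Mrps12 and Sars2, which encodes the mitochondrial seryl-tRNA synthetase, start 147 bases apart. This pair, 1 of the 4 called in opposite directions, was also singled out after its values were seen. While Mrps12 rose, Sars2 fell by 1.07 on the log2 scale (SE 0.32, limma adjusted p = 0.012), with control signals of 208, 277 and 369 and krill signals of 34, 151 and 259. The log2 ratio of Mrps12 to Sars2 shifted by 1.93 (SD 0.28 in control and 1.11 in krill livers, n = 7 each), and by 1.53 without the 4 arrays. All krill arrays had a higher ratio than all control arrays. The pair was chosen for its opposite calls, so this separation adds no further support to them. The part of the 3'/5' index in the shift was not tested.

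**Figure D4:**
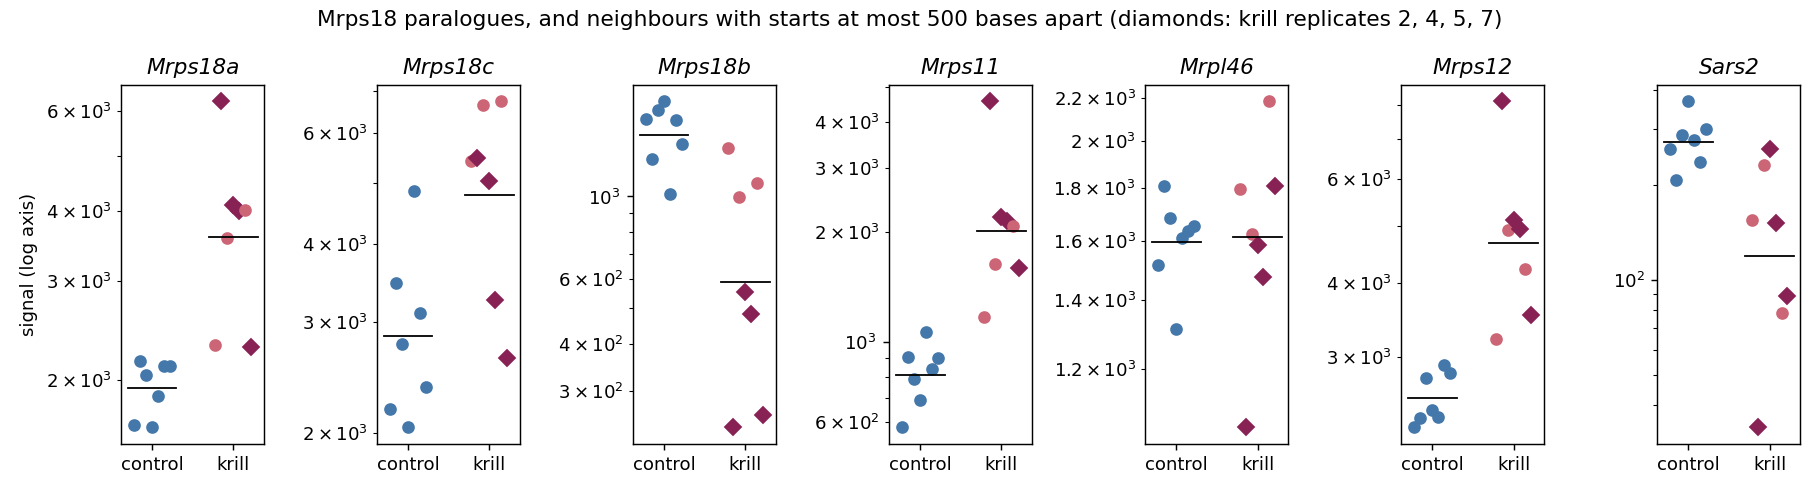
Signal on each array, on log axes, of the 3 Mrps18 relatives and of the neighbours Mrps11 with Mrpl46 and Mrps12 with Sars2, for control (blue) and krill livers (n = 7 each), with bars at the geometric mean and diamonds for krill replicates 2, 4, 5 and 7. Mrps18b and Sars2 are lower in krill livers while Mrps18a, Mrps18c, Mrps11 and Mrps12 are higher, and the groups of Mrpl46 overlap throughout. Signals are as deposited, and with spike-in scaling Mrps18c turns to -0.04.

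Genes with several probe sets allow a check of the choice of probe set. Of the 76 members 43 had a single probe set past the filter and 33 had several. Among the 33, all probe sets had the same sign in 25 and the same call in 13. Mrpl15 and Mrpl51 had probe sets called in opposite directions. For Mrpl15, counterpart of bacterial L15, 4 probe sets rose by 0.67 to 1.25, and 2 others, with control means of 750 and 269, fell by 0.85 and 0.91. Mrpl15 was picked out for this disagreement after its values were seen. Some probe sets shared with another gene also bear on the members: the one for Nme3 and Mrps34 had a difference of mean log2 signal of 0.95, whereas the probe set for Mrps34 alone changed by -0.51, and the signal of a shared probe set cannot be assigned to either gene.

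Of 11 translation factors tested 2 were higher and 5 lower (18.2% and 45.5%), with a median change of -0.21. Without krill replicates 2, 4, 5 and 7 the counts were 2 and 2 (18.2% each). With spike-in scaling none was higher and 7 were lower (63.6%). No difference of this or the following lists from the ribosomal proteins was tested. Over all genes tested 22.9% were higher and 24.8% lower. The all-gene shares were 12.7% and 19.6% without those 4 arrays and 2.95% and 48.2% with spike-in scaling. Oxa1l, which inserts new chains into the inner membrane, had control signals of 339, 901 and 1076 and krill signals of 7, 56 and 183 and fell by 3.29 on the log2 scale (SE 0.47, limma adjusted p = 4.9e-05). It was lower on every krill array than on any control array, and the change was -1.97 without krill replicates 2, 4, 5 and 7 and -1.94 as the mean of its probe sets. Gfm2, the factor that splits used ribosomes, fell by 1.16 (SE 0.21), and Mtif3, an initiation factor, rose by 1.02 (SE 0.20). Gfm2 changed by -0.63 without the 4 arrays and by -0.10 as the mean of its probe sets (adjusted p = 0.622), and Mtif3 by 0.25 with spike-in scaling (adjusted p = 0.485). Gfm1, the main elongation factor G, fell by 1.21 (SE 0.36), and by 0.45 without the 4 arrays (adjusted p = 0.0692), and the mean of its probe sets changed by -0.55 (adjusted p = 0.0502).

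Of 14 mitochondrial aminoacyl-tRNA synthetases 1 was higher and 5 were lower (7.14% and 35.7%), with a median of -0.28. Without the 4 krill arrays 1 was higher and 4 lower (7.14% and 28.6%). Iars2, for isoleucine, fell by 1.74 (SE 0.42) and by 0.87 without the 4 arrays, and Tars2, for threonine, fell by 0.64 (SE 0.19). Neither overlapped between the diets. Hars2, for histidine, fell by 1.61 (SE 0.46), and by 0.49 without the 4 arrays (adjusted p = 0.0762), with a change of -0.84 as the mean of its probe sets.

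Proteins of the ribosome that carry other symbols were split. Of 4 tested, Chchd1, a small subunit protein, rose by 2.08 (SE 0.28, limma adjusted p = 3.43e-05, and 1.29 with spike-in scaling), with control signals of 3017, 4499 and 6992 and krill signals of 8305, 19333 and 39682. Gadd45gip1, a large subunit protein at the peptide exit, rose by 0.70 (SE 0.23, adjusted p = 0.0204), and changed by -0.08 with spike-in scaling. Ptcd3, a small subunit protein, fell by 0.83 (SE 0.28, adjusted p = 0.0221), and neither of these was called without krill replicates 2, 4, 5 and 7. Dap3, a GTP-binding small subunit protein, changed by 0.34 (adjusted p = 0.0697).

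Of 22 factors that build the ribosome and modify its RNA 6 were higher and 6 lower (27.3% each). These shares are close to the 22.9% and 24.8% of all genes tested. The median change was 0.08, against 0.04 over all genes. With spike-in scaling none was higher and 10 were lower (45.5%, against 48.2% of all genes). Malsu1, whose human counterpart binds Mrpl14 during late assembly of the large subunit, rose by 1.12 (SE 0.19). Tfb1m, which methylates the small ribosomal RNA, rose by 1.18 (SE 0.21). Neither overlapped between the diets, and with spike-in scaling neither was past the threshold (0.34 and 0.40, adjusted p = 0.306 and 0.264). Spg7, a subunit of the inner membrane protease that processes Mrpl32, had control signals of 154, 548 and 738 and krill signals of 9, 21 and 178 and fell by 3.33 (SE 0.45), and the helicase Dhx30 fell by 2.64 (SE 0.52). Dhx30 changed by -1.14 without the 4 krill arrays and by -0.90 as the mean of its probe sets.

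Of 17 genes of mitochondrial transcription and RNA processing 5 were higher (29.4%) and 6 lower (35.3%), against 22.9% and 24.8% of all genes. The partners described together here were paired after their values were seen. Slirp, which forms a complex with Lrpprc that stabilises mitochondrial messages, rose by 1.85 (SE 0.26), from a median signal of 3122 to 10575, while Lrpprc fell by 2.13 (SE 0.40), from 2726 to 418. Tfam, which packages mitochondrial DNA and opens its promoters, rose by 1.36 (SE 0.20), while Tfb2m, its partner in starting transcription, fell by 1.49 (SE 0.35). The fall of Tfb2m was not called without krill replicates 2, 4, 5 and 7 (-0.39, adjusted p = 0.0769), whereas the changes of Slirp, Tfam and Lrpprc were smaller (1.25, 1.02 and -0.95) and still called. With spike-in scaling Tfam was not past the threshold (0.57, adjusted p = 0.0739).

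With signal as deposited, none of 9 tested nuclear regulators of mitochondrial genes was called higher, against 22.9% of all genes. Another 3 were lower (33.3%, against 24.8%), and the median was -0.39. At an unadjusted p under 0.05 in the same limma fit 4 of the 9 passed, 1 of them higher (Yy1, 0.40) and 3 lower. After quantile normalization 2 were called higher and 3 lower (22.2% and 33.3%, against 24.4% and 22.4% of all genes). With spike-in scaling none was higher and 5 were lower (55.6%, against 48.2% of all genes). Ppargc1b, a coactivator of mitochondrial biogenesis, fell by 2.29 (SE 0.37, limma adjusted p = 0.000116), with control signals of 331, 1011 and 1493 and krill signals of 52, 167 and 372. Ppargc1a, its relative, fell by 0.81 (SE 0.21), and Gabpb1, a subunit of the ETS factor NRF-2, fell by 0.96 (SE 0.30). Both were also lower without the 4 arrays, with limma adjusted p of 0.0284 and 0.0478. Over the 5 probe sets of Ppargc1a, however, the mean changed by -0.23 (adjusted p = 0.248), and over the 4 of Yy1 by -0.24.

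Other large sets of structural proteins also had more genes higher than lower with signal as deposited. Of 44 cytosolic ribosomal protein genes 29 were higher and 4 lower (65.9% and 9.09%), with a median of 0.90. Of 33 subunits of respiratory complex I 20 were higher and 6 lower (60.6% and 18.2%), with a median of 0.80. Over all genes the shares were 22.9% and 24.8%. Without krill replicates 2, 4, 5 and 7 the medians were 0.58 and 0.55, next to 0.53 for the mitochondrial ribosomal proteins. With spike-in scaling 11 cytosolic ribosomal protein genes were higher and 9 lower (median 0.11), and 4 complex I genes were higher and 9 lower (median 0.007). Over all genes 2.95% were then higher and 48.2% lower (median -0.71). The differences between the sets were not tested.

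**Figure D5:**
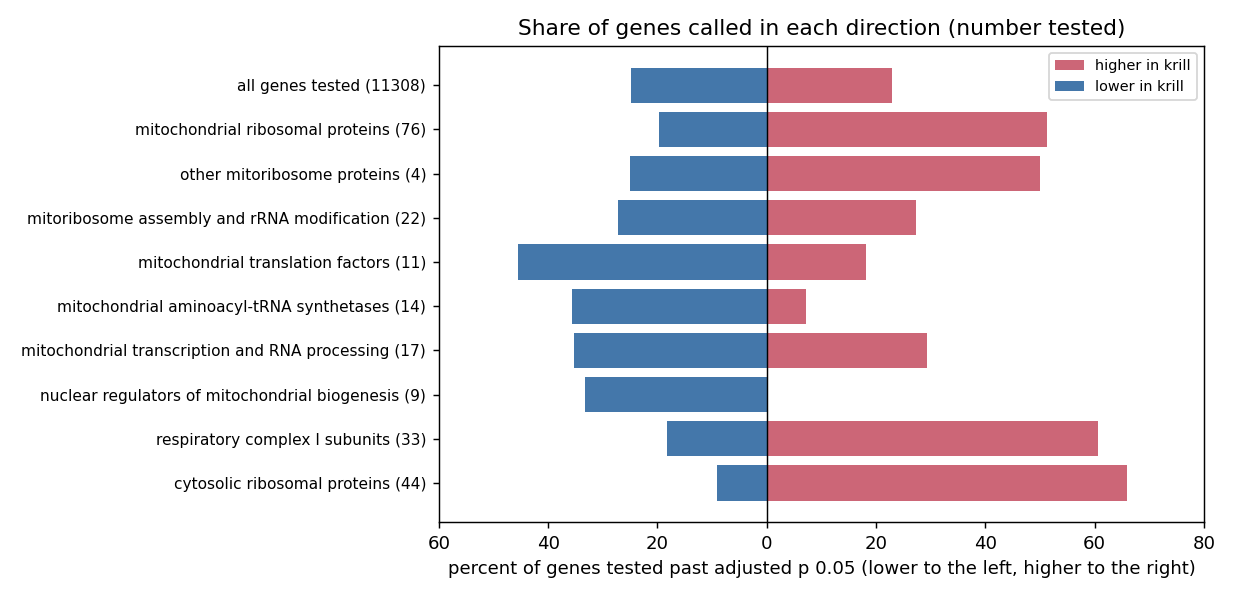
Percent of the genes tested in each list that were called higher (right, red) or lower (left, blue) in krill liver by limma at an adjusted p of 0.05, with the number tested in brackets. The mitochondrial ribosomal proteins have 51.3% higher and 19.7% lower, while translation factors have 18.2% and 45.5% and aminoacyl-tRNA synthetases 7.14% and 35.7%. Signals are as deposited, and with spike-in scaling the members have 8 genes higher and 23 lower.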

How the data were processed

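Biotin-labelled cRNA from liver RNA of each mouse was hybridised to an Affymetrix array, per the labels' protocols. The deposited values are linear intensity values, 1 per probe set and array, made with MAS5 per the submitters' processing notes, which name no version. Detection calls and scanner files were not used here, and the number of arrays limits the precision.

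Diet and replicate number were read from each title. Of 45101 probe sets 64 were controls, 34945 name 1 gene symbol, 932 several and 9160 are unnamed here. The 50% of non-control probe sets with the higher mean log2 signal (22518) were kept, and each gene was read from its brightest one, leaving 11308 genes. Diet was tested on log2(signal + 16), which understates folds of dim genes, with limma 3.58.1 in R 4.3.3 (lmFit, eBayes with trend) and Benjamini-Hochberg adjustment over all genes at 0.05. Signals of a gene are given as the lowest, median and highest of 7 arrays. Summaries were made in Python 3.11.15 with pandas 2.3.3, and the fit was checked on simulated data.

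The members and lists were chosen with earlier results of these data known. Named are the 10 largest rises and falls among members called, a panel of 8 members, and per pathway list up to 4 genes with the smallest p; the tables of promoters and gene starts are RefSeq's for GRCm38.p6, while no build is named for the arrays. Members were placed by symbol, with placement by structure as an alternative. The other alternatives were the pseudocount, scaling, signal filter, probe set rule, trend, array weights, spike-in level or 3'/5' index as a covariate, each array left out, krill replicates 2, 4, 5 and 7 left out, and the replicate number as a block. Arrays of the same number hardly varied together (correlations of their deviations from the group means of -0.02 to 0.10), and the numbers were not used as pairs. Arrays of unlike number were not compared, so a matching by number is not excluded.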

Additional observations from a re-analysis of the deposited data

Results flagged for a closer look

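Checked were 54 groups of arrays: 25 named members, the members' median and the subunit difference, each in both diets. In 3 of them the highest array stood apart from the others by more than Dixon's limit for 7 values. For normally distributed values chance alone does so in about 1 of 20 groups. The gaps of these 3 members were taken on linear signals, not on the log2 scale of the tests, and that rate need not hold for them. In all 3 groups the highest array was krill replicate 2. Its signal was 25599 for Mrpl14, 21179 for Mrpl20 and 8107 for Mrps12, with a gap to the next array of 0.641, 0.569 and 0.614 of the group's range. Mrpl14, Mrpl20 and Mrps12 were also called higher without krill replicates 2, 4, 5 and 7, with log2 changes of 1.47, 1.16 and 0.66.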

How the results depend on the processing

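The main counts were 39 members higher and 15 lower, with a median change of 0.53 and a difference between the subunits of 0.16. Centring on array medians gave 22 higher and a median of 0.13, and spike-in scaling gave 8 higher, 23 lower and a median of -0.25. With the spike-in level as a covariate 4 were lower and the difference between the subunits was 0.011. With the 3'/5' index as a covariate limma called 0 higher and 0 lower (19 higher and 2 lower at an unadjusted p under 0.05), with a median of 0.69 and a subunit difference of 0.076. Without krill replicates 2, 4, 5 and 7 there were 4 lower, and the subunit difference was -0.012. It was -0.11 with subunits by structure, 0.25 after quantile normalization and 0.22 with array weights. Leaving out 1 array at a time gave 39 to 42 higher, 12 to 16 lower, a median of 0.49 to 0.58 and a subunit difference of 0.11 to 0.17. With the replicate block the counts were 39 higher and 15 lower and no call of the 25 named members changed. Of the named members, Mrpl45, Mrps18b, Mrpl42 and Mrpl50 turned to 0.23, 0.035, 0.14 and 0.28 with the 3'/5' index as a covariate. Mrpl50 was also at 0.091 with the spike-in covariate and at 0.006 without the 4 krill arrays. Mrpl51 was at 0.13 as the mean of its probe sets, and Mrps18c and Mrps30 were at -0.04 and -0.21 with spike-in scaling. Of the 25 named members, centring ended 5 calls, spike-in scaling ended 5 and turned 2, the spike-in covariate ended 8 and turned 1, and the 3'/5' covariate ended or turned all 25. The cause of these changes was not tested. No signal filter, a filter at the upper 30%, a pseudocount of 1 or 64, and no trend changed no call of the named members. Low signal limits the dimmer probe sets, since no detection calls were used.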
